A study of Mus musculus with 6 samples.

Results

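The 10 iron and heme handling genes examined here were *Fth1*, *Ftl1*, *Slc40a1*, *Tfrc*, *Trf*, *Slc11a1*, *Hmox1*, *Blvrb*, *Slc48a1* and *Spic*. They were taken by symbol from the 56980 genes of the count table, and all 10 passed the filter on low counts, as did 15190 genes in all. RNA-Seq was performed on BM MSCs, cells grown for 7 days from flushed marrow with repeated washes and no sort. All 6 samples came from female mice that underwent OVX (removal of both ovaries) at 8 weeks of age, had their own gut bacteria depleted with antibiotics and then received FMT (fecal microbiota transplantation) by gavage for 8 weeks. The 3 samples of the TranspCtrl group came from recipients of feces of sedentary OVX mice, and the 3 samples of the TranspExer group from recipients of feces of OVX mice run on a treadmill for 8 weeks. The mouse strain is not given in the sources used here, and nothing says that the 3 samples of a group came from separate animals or cultures, so the tests measure the spread between these samples.

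Total counts per sample ranged from 17647682 to 21319228. TranspCtrl replicate 1 stood apart from its group, at a distance of 62.9 and 60.5 from replicates 2 and 3 (Euclidean distance over the log2 CPM of the tested genes), while those 2 lay 37.1 apart. The TranspExer samples lay 42.4 to 43.8 from each other. Values are given as CPM (read counts relative to the library total, scaled with TMM factors) and as mean ± SD over 3 samples. Fold changes compare the TranspExer group with the TranspCtrl group, and each adjusted p was given by the quasi-likelihood test of edgeR, adjusted by Benjamini-Hochberg over all tested genes. A DEG is a gene with an adjusted p under 0.05 that differed at least 2-fold in either direction.

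Cells take up iron mainly as transferrin bound to the transferrin receptor, keep it in ferritin, a shell of heavy and light chains, and release it through ferroportin, the only known iron exporter of mammalian cells. Macrophages of the marrow and spleen also recover iron from the heme of engulfed red cells, which heme oxygenase opens to give iron, carbon monoxide and biliverdin. The iron regulatory proteins set much of this balance after transcription: when iron is scarce they bind hairpins called iron-responsive elements, where binding in a 5′UTR blocks translation and binding in the 3′UTR of the transferrin receptor transcript protects it from decay.

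The hairpins found in these genes are shown because they divide the 10 genes into those with and those without this known control. A motif of 17 bases was searched on the transcript strand of each protein-coding GENCODE M21 transcript, namely a C, 5 bases, the loop CAGTGN with a last base other than G, and 5 bases able to pair with the first 5 (Watson-Crick or G:T pairs). It was present in the 5′UTR of 23 of 20900 genes (0.11%) and in the 3′UTR of 100 of 21028 genes (0.476%). Among the 10 genes, *Fth1*, *Ftl1* and *Slc40a1* held 1 match each in the 5′UTR, and *Tfrc* held 4 in the 3′UTR. Each stretch of 30 bases lies within 1 exon of GRCm38 and is written 5′ to 3′ on the strand of the gene, with the 6 bases of the loop in capitals. A match is a match of letters only, and binding was not measured.
*Fth1* 5′UTR, chr19:9982732-9982761, plus strand: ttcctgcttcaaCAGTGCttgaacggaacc
*Ftl1* 5′UTR, chr7:45459778-45459807, minus strand: gtcttgcttcaaCAGTGTttgaacggaaca
*Slc40a1* 5′UTR, chr1:45925464-45925493, minus strand: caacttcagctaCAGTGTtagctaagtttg
*Tfrc* 3′UTR, chr16:32631219-32631248, plus strand: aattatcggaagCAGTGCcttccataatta
*Tfrc* 3′UTR, chr16:32631598-32631627, plus strand: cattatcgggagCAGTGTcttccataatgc
*Tfrc* 3′UTR, chr16:32631663-32631692, plus strand: ctatatcggagaCAGTGAtctccatatgtt
*Tfrc* 3′UTR, chr16:32631710-32631739, plus strand: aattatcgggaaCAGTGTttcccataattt

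Transcripts of the iron exporter *Slc40a1*, the transferrin receptor *Tfrc* and the ferritin heavy chain *Fth1* were more abundant in the TranspExer group. Of the 10 genes, these 3 were upregulated DEGs, against 3.5% of all tested genes, and none was a downregulated DEG, against 5.28% of all tested genes. By adjusted p alone 9 of the 10 genes were higher in the TranspExer group, against 16.6% of all tested genes, and 0 were lower, against 15.5%. The exception was *Blvrb*. All 10 log2 fold changes were above 0 with edgeR and with DESeq2, so 0 genes were lower at an unadjusted p under 0.05 with either tool. In the same 9 genes every TranspExer sample lay above every TranspCtrl sample, a pattern seen in 27.2% of all tested genes, and 0 showed the reverse, against 25.1%. The median log2 fold change of the 10 genes was 0.73, and that of all tested genes was -0.02. These counts describe the 10 genes, which were chosen with results of these data known.

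**Figure D1:**
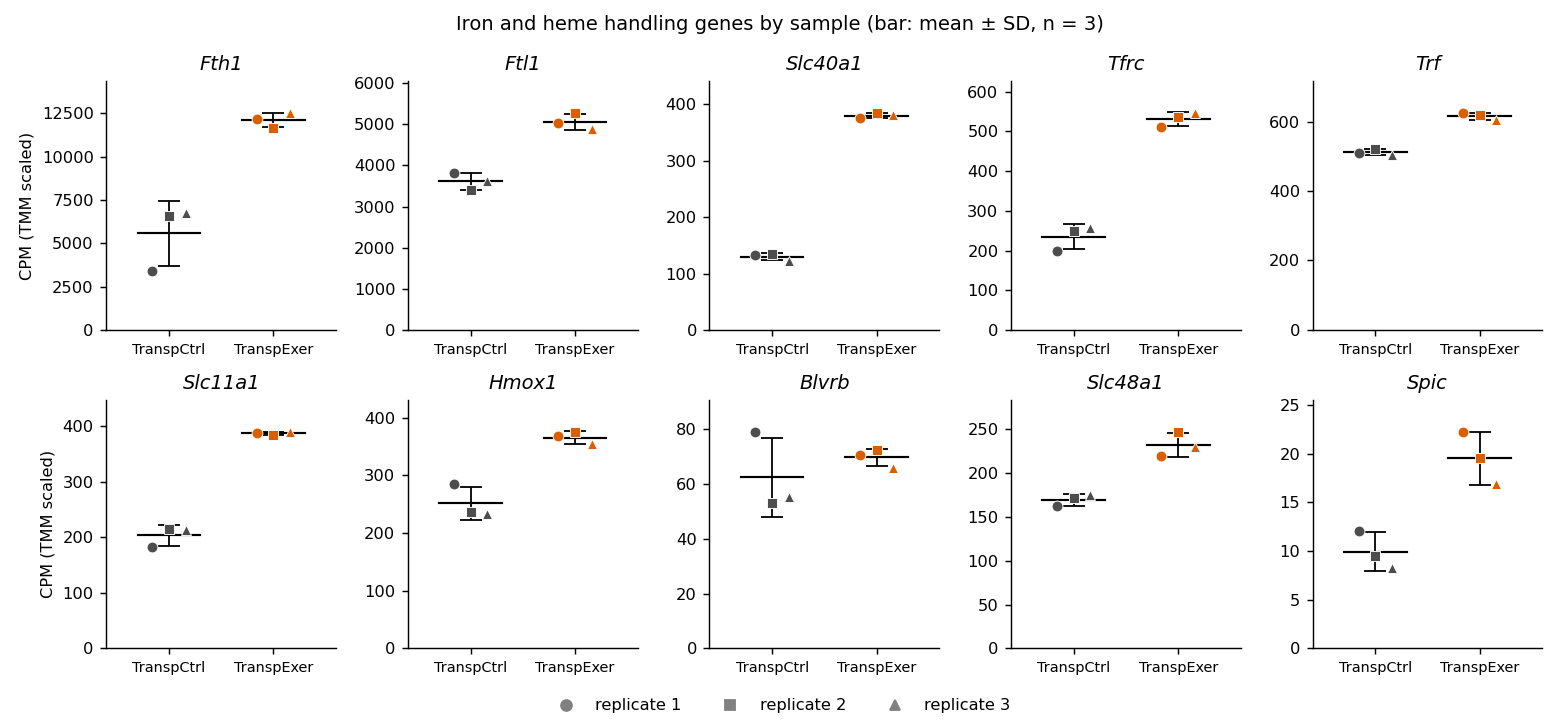
CPM (y axis, TMM scaled, each axis from 0) of the 10 iron and heme handling genes in the TranspCtrl and TranspExer samples (x axis), where symbols mark the replicates and bars the mean ± SD of 3 samples. The groups overlap for *Blvrb* only, and TranspCtrl replicate 1 lies far below its group for *Fth1*, at 3424 CPM against 6564 and 6760.

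*Fth1* (ENSMUSG00000024661, chr19:9980598-9985098) encodes the ferritin heavy chain, the subunit that oxidizes iron for storage. Its level was 3424, 6564 and 6760 CPM in TranspCtrl replicates 1, 2 and 3 and 12172, 11643 and 12481 CPM in TranspExer replicates 1, 2 and 3. The groups did not overlap, and TranspCtrl replicate 1 was well below the other TranspCtrl samples. The group means were 5583 ± 1872 and 12098 ± 424 CPM, a log2 fold change of 1.12 (SE 0.24, edgeR adjusted p = 0.0103). *Fth1* alone took 0.368% to 0.682% of all counts in the TranspCtrl samples and 1.14% to 1.21% in the TranspExer samples. Without TranspCtrl replicate 1 the log2 fold change was 0.86 (edgeR adjusted p = 8.26e-09), under the 2-fold limit.

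*Ftl1* (ENSMUSG00000050708, chr7:45457944-45459884) encodes the ferritin light chain, which helps the iron core to form. It measured 3810, 3408 and 3628 CPM in the TranspCtrl samples and 5026, 5264 and 4888 CPM in the TranspExer samples. Every TranspExer sample was higher, the lowest by 1.28-fold over the highest TranspCtrl sample. The log2 fold change was 0.48 (SE 0.09, edgeR adjusted p = 0.00653), so *Ftl1* rose by less than 2-fold. Here TranspCtrl replicate 1 was the highest of its group, the opposite of its place for *Fth1*. Pseudogenes found by symbol were given few counts. The 3 of *Fth1* together reached at most 0.00428% and the 3 of *Ftl1* at most 0.109% of the counts of the parent gene in any sample. Pseudogenes under other symbols were not included, and how reads shared with the parent gene were assigned is not given in the sources used here.

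The balance of the ferritin chains within a sample does not depend on scaling between samples. The log2 ratio of *Ftl1* to *Fth1* counts was 0.15, -0.95 and -0.90 in the TranspCtrl samples and -1.28, -1.15 and -1.35 in the TranspExer samples. Every TranspExer sample therefore held less *Ftl1* per *Fth1* count than any TranspCtrl sample, and TranspCtrl replicate 1 alone held more *Ftl1* than *Fth1* counts. The difference of the means was -0.69, with an exact two-sided permutation p = 0.1, the smallest that 3 against 3 samples allow. It was -0.34 without TranspCtrl replicate 1. The log2 ratio of *Tfrc* to *Fth1* counts was -4.11, -4.71 and -4.72 in the TranspCtrl samples and -4.58, -4.44 and -4.52 in the TranspExer samples. The groups overlapped and their means, -4.51 ± 0.35 and -4.51 ± 0.07, gave an exact two-sided permutation p = 1. This is not a sign of a fixed ratio, since without TranspCtrl replicate 1 the difference was 0.21 and the other 2 TranspCtrl samples lay below all TranspExer samples.

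**Figure D2:**
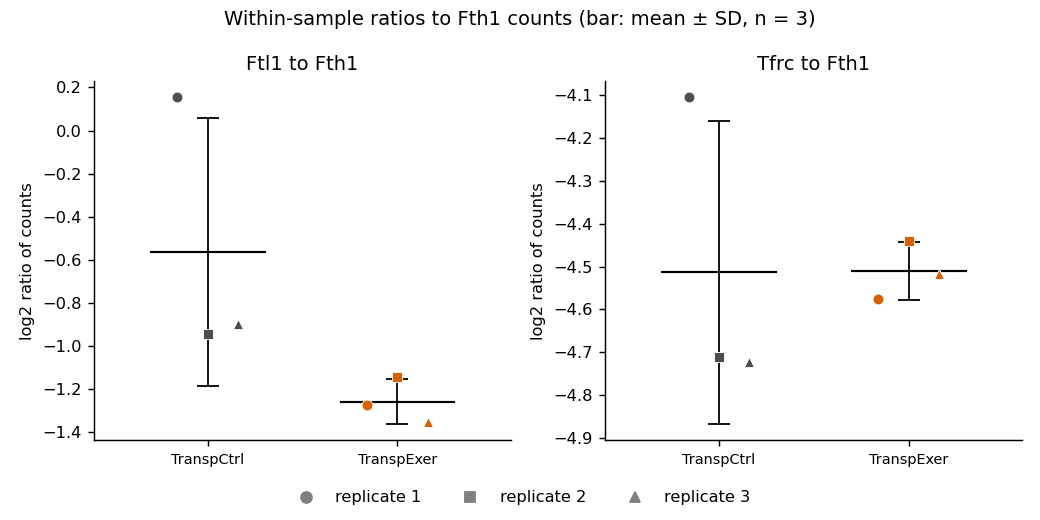
Log2 ratio of *Ftl1* to *Fth1* counts (left) and of *Tfrc* to *Fth1* counts (right) on the y axes, by group on the x axis, where symbols mark the replicates and bars the mean ± SD of 3 samples. In both panels TranspCtrl replicate 1 is the highest point, at 0.15 and -4.11, and the y axes do not start at 0.

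*Slc40a1* (ENSMUSG00000025993, chr1:45908068-45926523) encodes ferroportin, the iron exporter. It measured 133, 135 and 122 CPM in the TranspCtrl samples and 376, 384 and 380 CPM in the TranspExer samples. The samples were close within each group, and the lowest TranspExer sample was 2.79-fold above the highest TranspCtrl sample. With a log2 fold change of 1.55 (SE 0.08, 95% interval 1.37 to 1.73, edgeR adjusted p = 3.21e-05), *Slc40a1* had the largest log2 fold change of the 10 genes. It was past the adjusted p in 17 of 17 alternative settings, with log2 fold changes from 1.35 to 1.58, and it was the only one of the 10 genes called when the fold change of 2 was tested within the model (edgeR adjusted p = 0.00151), as were 0.908% of all tested genes.

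*Tfrc* (ENSMUSG00000022797, chr16:32608920-32632794) encodes the transferrin receptor, through which most cells take up iron. It measured 199, 250 and 256 CPM in the TranspCtrl samples and 510, 536 and 545 CPM in the TranspExer samples. The groups did not overlap, with TranspCtrl replicate 1 again the lowest. The log2 fold change was 1.17 (SE 0.11, edgeR adjusted p = 0.000284), and 1.07 without TranspCtrl replicate 1. *Tfrc*, the importer, and *Slc40a1*, the exporter, thus rose in the same samples. When a fold change of 2 was tested within the model the edgeR adjusted p of *Tfrc* was 0.448, as its 95% interval of 0.92 to 1.43 reached below 2-fold.

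*Trf* (ENSMUSG00000032554, chr9:103204001-103230444) encodes transferrin, the iron carrier of plasma that is also made outside the liver. It measured 509, 522 and 505 CPM in the TranspCtrl samples and 623, 619 and 603 CPM in the TranspExer samples. The samples within a group differed little and the groups did not overlap, but the log2 fold change was only 0.27 (SE 0.07, edgeR adjusted p = 0.0285). This was the least stable of the 9 calls, since *Trf* was past the adjusted p in 6 of 17 alternative settings and lost the call when any of 5 samples was left out, with edgeR adjusted p up to 0.117. With the replicate number as a block it was 0.0659. *Trf* also shares 2108 exonic bases with Gm20425 on the same strand, and how reads of the shared part were assigned is not given in the sources used here.

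*Slc11a1* (ENSMUSG00000026177, chr1:74375195-74386062) encodes NRAMP1, which moves iron and other metal ions out of the phagosome of macrophages and neutrophils. It measured 182, 215 and 213 CPM in the TranspCtrl samples and 388, 384 and 389 CPM in the TranspExer samples. The TranspExer samples were nearly equal, with a coefficient of variation of 0.654%, and all lay above the TranspCtrl samples. The log2 fold change was 0.93 (SE 0.09, edgeR adjusted p = 0.000319), just under the 2-fold limit.

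The 3 genes of heme transport and breakdown had log2 fold changes from 0.16 to 0.54. *Hmox1* (ENSMUSG00000005413, chr8:75093621-75100589) encodes heme oxygenase 1, the inducible enzyme that degrades heme. It measured 285, 237 and 233 CPM in the TranspCtrl samples and 368, 375 and 354 CPM in the TranspExer samples. All TranspExer samples were higher, the lowest by 1.24-fold over TranspCtrl replicate 1, the highest of its group. The log2 fold change was 0.54 (SE 0.10, edgeR adjusted p = 0.00543). *Slc48a1* (ENSMUSG00000081534, chr15:97778520-97792692) encodes HRG1, which carries heme from the phagolysosome into the cytosol. It measured 162, 171 and 175 CPM in the TranspCtrl samples and 219, 247 and 230 CPM in the TranspExer samples, with no overlap. Its log2 fold change was 0.46 (SE 0.08, edgeR adjusted p = 0.00469). It shares 29 exonic bases with *Hdac7* on the opposite strand.

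*Blvrb* (ENSMUSG00000040466, chr7:27447978-27466144) encodes biliverdin reductase B, an enzyme of heme breakdown with a broad flavin reductase activity. It measured 78.9, 52.9 and 55.2 CPM in the TranspCtrl samples and 70.6, 72.2 and 65.9 CPM in the TranspExer samples. TranspCtrl replicate 1 was the highest of all 6 samples, and the other TranspCtrl samples were the lowest. The log2 fold change of 0.16 did not pass the test (95% interval -0.18 to 0.50, edgeR adjusted p = 0.44). Without TranspCtrl replicate 1 it was 0.36 (edgeR adjusted p = 0.000456), so this 1 library decided the call.

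*Spic* (ENSMUSG00000004359, chr10:88674772-88685015) encodes a transcription factor of the Ets family that heme induces and that the iron-recycling macrophages of spleen and marrow need. It was the least abundant of the 10 genes, at 12.1, 9.45 and 8.23 CPM in the TranspCtrl samples and 22.2, 19.5 and 16.8 CPM in the TranspExer samples. The samples of each group were spread widely, yet the lowest TranspExer sample was 1.39-fold above the highest TranspCtrl sample. The log2 fold change was 0.98 (SE 0.17, edgeR adjusted p = 0.00404), under the 2-fold limit. It was past that limit without TranspCtrl replicate 1 (1.14) or TranspExer replicate 3 (1.06).

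Leaving out TranspCtrl replicate 1 thus moved the genes in both directions. *Fth1* dropped below 2-fold, *Spic* passed it and *Blvrb* passed the adjusted p, so that 10 of the 10 genes were then higher in the TranspExer group by adjusted p and *Slc40a1*, *Tfrc* and *Spic* were DEGs. In the same fit 22.1% of all tested genes were higher by adjusted p and 3.27% were upregulated DEGs. *Hmox1* and *Ftl1* gave 0.64 and 0.52 without that library. The collagen I genes were also low in TranspCtrl replicate 1, with *Col1a1* at 4563 CPM against 9951 and 9613 CPM and *Col1a2* at 5132 CPM against 7350 and 7029 CPM in replicates 2 and 3. The other 10 of 12 stromal cell markers summed to 2376 CPM in that library and to 2506 and 2463 CPM in the others. TranspCtrl replicate 1 was also the highest of its group in several myeloid and lymphoid markers and the lowest in others. The macrophage marker sum was 6243 CPM there against 5517 and 5382 CPM in replicates 2 and 3, with *C1qb*, a complement chain, at 843 CPM against 434 and 462 CPM. The neutrophil marker sum was 3852 CPM against 2790 and 3163 CPM, and the B and plasma cell sum was 2253 CPM against 1848 and 1904 CPM. Other members of these lists were lowest of the TranspCtrl group in that library. They included *Axl* (419 against 568 and 532 CPM), *Cd68* (466 against 486 and 484 CPM) and *Csf1r* (857 against 919 and 869 CPM). *Mpo* (151 against 241 and 257 CPM) and *Pax5* (22.0 against 29.6 and 29.5 CPM) were lowest there too. The endothelial marker sum was also lowest there, at 199 CPM against 250 and 235 CPM. *Hmox1*, *Blvrb* and *Spic* were highest of the TranspCtrl group in that library. The part of these differences in the values of the 10 genes was not tested.

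**Figure D3:**
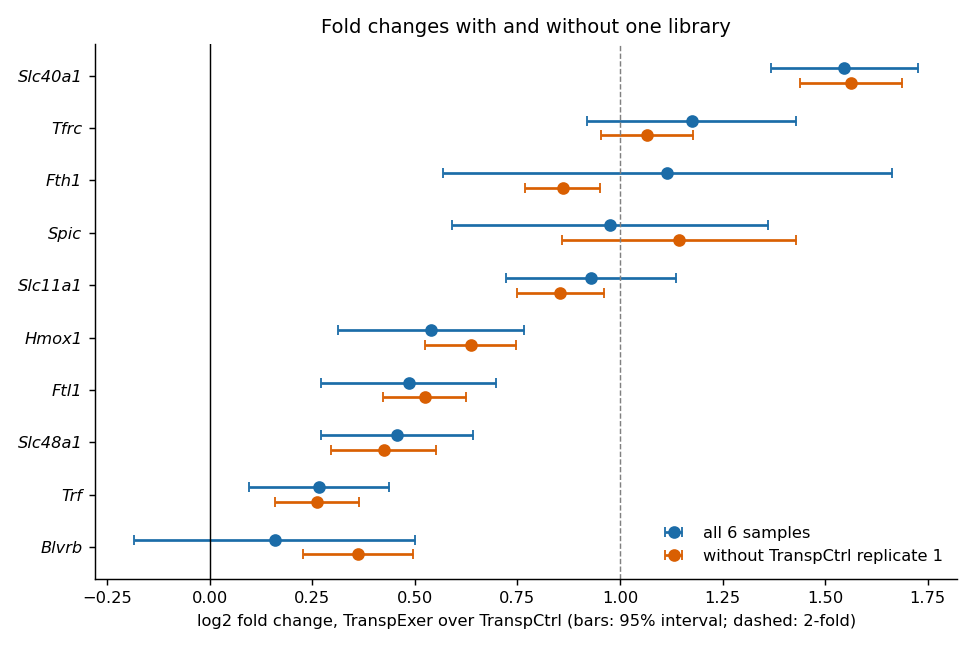
Log2 fold change of the TranspExer over the TranspCtrl group (x axis) for each of the 10 genes (y axis) with all 6 samples and without TranspCtrl replicate 1, where points are estimates, bars 95% intervals and the dashed line 2-fold. *Fth1* moves from 1.12 to 0.86, *Blvrb* from 0.16 to 0.36, and *Slc40a1* stays at 1.55 and 1.56.

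Levels can be compared between genes per transcript length, as RPKM (CPM divided by the transcript length in kilobases, from the length column of the count table). Both ferritin chains were far above the rest. In the TranspCtrl group the order by mean RPKM was *Fth1* (6009 ± 2015), *Ftl1* (3735 ± 208), *Trf* (219 ± 3.85), *Hmox1* (160 ± 18.5), *Slc11a1* (87.8 ± 8.0), *Slc48a1* (66.7 ± 2.57), *Blvrb* (65.5 ± 15.1), *Tfrc* (48.1 ± 6.43), *Slc40a1* (38.6 ± 1.99) and *Spic* (5.63 ± 1.13). *Blvrb* and its neighbours in that order, *Slc48a1* and *Tfrc*, did not differ beyond their SDs. In the TranspExer group *Fth1* reached 13023 ± 457 RPKM and *Ftl1* 5227 ± 196 RPKM. *Slc40a1* (113 ± 1.2) and *Tfrc* (108 ± 3.69) there lay above *Slc48a1* (91.4 ± 5.46) and *Blvrb* (73.2 ± 3.43), the reverse of their order in the TranspCtrl group, and did not differ from each other beyond their SDs. *Trf* (263 ± 4.49), *Hmox1* (233 ± 6.96), *Slc11a1* (167 ± 1.09) and *Spic* (11.1 ± 1.53) kept their places.

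All 4 genes whose hairpins are printed above were higher in the TranspExer group by adjusted p, and 3 of them were DEGs, against 16.6% and 3.5% of all tested genes, with log2 fold changes from 0.48 for *Ftl1* to 1.55 for *Slc40a1*. Of the 6 genes without a match, 5 were higher by adjusted p and 0 were DEGs, with log2 fold changes from 0.16 for *Blvrb* to 0.98 for *Spic*. This split of the DEGs rested on 1 library: without TranspCtrl replicate 1 *Fth1*, with a match, was no DEG (0.86) and *Spic*, without one, was a DEG (1.14), and *Spic* was also a DEG without TranspExer replicate 3 (1.06). Other genes with the motif moved in both directions. They are matches of letters only, so whether genes under this control move together cannot be read from them. Of 16 other tested genes with a match in the 5′UTR, 4 were higher and 3 lower by adjusted p and 1 was an upregulated and 1 a downregulated DEG. Their median log2 fold change was -0.08. Of the 4 higher genes 1 was *Ftl1-ps1* (0.99, edgeR adjusted p = 0.0328), named as a pseudogene of *Ftl1* but annotated as protein-coding in GENCODE M21. Of 75 others with a match in the 3′UTR, 17 were higher and 9 lower by adjusted p and 2 were upregulated and 4 downregulated DEGs, with a median of 0.04. *Tfrc* and the 3 genes with a 5′UTR hairpin rose together at the level of transcripts, while translation was not measured.

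Other genes of iron and heme handling moved in both directions. Of 77 genes in 4 lists, 69 were tested, and 17 were higher and 8 lower by adjusted p, against 16.6% and 15.5% of all tested genes. Of the 69, 1 was an upregulated and 2 were downregulated DEGs, against 3.5% and 5.28% of all tested genes. The median log2 fold change of these 69 genes was 0.11. In the list of iron uptake, reduction and regulation 21 of 26 genes were tested, of which 6 were higher and 6 lower, with a median of -0.06. Both of its DEGs were downregulated. *Tfr2*, a second transferrin receptor that senses iron-loaded transferrin, measured 15.9, 13.9 and 13.1 CPM in the TranspCtrl samples and 4.03, 3.78 and 3.63 CPM in the TranspExer samples. Its log2 fold change was -1.91 (SE 0.13, edgeR adjusted p = 7.57e-05), opposite in sign to that of *Tfrc*. *Cp*, the ferroxidase ceruloplasmin that oxidizes iron leaving through ferroportin, measured 89.0, 87.6 and 81.4 CPM in the TranspCtrl samples and 40.5, 40.8 and 38.1 CPM in the TranspExer samples. Its log2 fold change was -1.11 (SE 0.08, edgeR adjusted p = 7.57e-05), opposite in sign to that of *Slc40a1*. *Hamp*, the gene of the iron hormone hepcidin, and *Ftmt*, mitochondrial ferritin, had 0 counts in all 6 samples, which allows at most 0.174 CPM per sample for counting error only.

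The heme lists held 1 DEG. Over all tested genes 3.5% were upregulated and 5.28% downregulated DEGs, and 16.6% were higher and 15.5% lower by adjusted p. In the list of heme uptake, export, breakdown and sensing 14 of 16 genes were tested, of which 5 were higher and 1 lower by adjusted p, with a median log2 fold change of 0.23. *Flvcr1*, a transporter first described as a heme exporter, measured 20.7, 35.7 and 36.2 CPM in the TranspCtrl samples and 64.8, 61.5 and 64.4 CPM in the TranspExer samples. Like *Fth1*, it was lowest in TranspCtrl replicate 1. Its log2 fold change was 1.04 (SE 0.19, edgeR adjusted p = 0.00552), and it was no DEG without that library (0.82), with upper-quartile factors (0.97), with library size alone (0.96), when scaled to macrophage markers (0.83) or when the fold change of 2 was tested within the model. In the list of heme synthesis and mitochondrial iron transport 16 of 17 genes were tested, 4 were higher and 0 lower by adjusted p, and none was a DEG. The smallest adjusted p there belonged to *Alas1*, the first enzyme of heme synthesis outside red cells (log2 fold change 0.55, SE 0.09, edgeR adjusted p = 0.003), and *Alad*, the second enzyme (0.81, SE 0.18, edgeR adjusted p = 0.0115). All 18 genes of iron-sulfur cluster assembly were tested and none was a DEG, with a median of -0.02. *Hspa9*, the mitochondrial chaperone that hands over new clusters, was lower (log2 fold change -0.37, edgeR adjusted p = 0.00764), and *Nubp1*, of the cytosolic pathway, was higher (0.28, edgeR adjusted p = 0.0248).

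**Figure D4:**
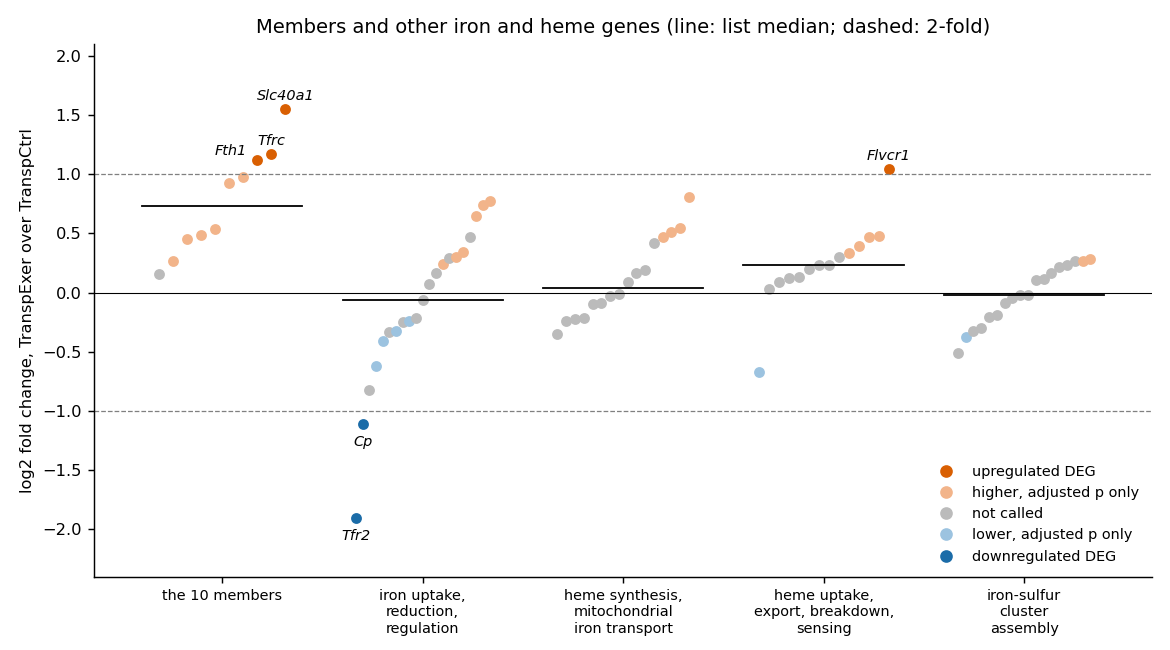
Log2 fold change of the TranspExer over the TranspCtrl group (y axis) for each tested gene of the 10 described here and of 4 other lists (x axis), where colours mark the call, black lines the median of each list and dashed lines 2-fold. The 10 genes have a median of 0.73, and the other lists lie between -0.06 and 0.23.

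The profiles most like those of the 3 DEGs over the 6 samples were sought among 11247 genes with a mean of at least 5 CPM, by the root mean square distance of log2 CPM after each gene was centred on its own mean. Nearest to *Fth1* were *Lpcat4* (0.028), *Fscn1* (0.033) and *Cyp26b1* (0.040). Nearest to *Slc40a1* were *Amz1* (0.034), *Gdf3* (0.069) and *Plin2* (0.071). Nearest to *Tfrc* were *Mmrn1* (0.043), *Mgat5* (0.046) and *Col4a2* (0.052).

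Markers of several cell types were present in these samples labelled as MSCs, and fewer cells of a type and less RNA per cell cannot be told apart in bulk samples. The counts of markers below stand against 16.6% of all tested genes that were higher and 15.5% that were lower by adjusted p. Of the 12 stromal cell markers none was at 0, 3 were higher and 7 lower by adjusted p in TranspExer samples, and their sum was 12071 to 19808 CPM in the TranspCtrl and 12827 to 14065 CPM in the TranspExer samples. *Col1a1* and *Col1a2* made up 80.3% to 87.3% of that sum, and the other 10 markers summed to 2376 to 2506 CPM and to 1948 to 1974 CPM, with no overlap. Of 18 macrophage markers 8 were higher and 2 lower, with none at 0. The macrophage sum was 5382 to 6243 CPM in the TranspCtrl and 6458 to 6591 CPM in the TranspExer samples. TranspCtrl replicate 1 had the highest and TranspExer replicate 1 the lowest macrophage sum of its group. Between these samples *Axl* alone differed by more than the sum, at 419 and 754 CPM, as did *Cd68* alone, at 466 and 802 CPM. Leaving out either gene would therefore make the groups overlap. Of the 3 macrophage markers with the highest mean level, *Cd68* (log2 fold change 0.78) and *Axl* (0.63) were higher by adjusted p, and *Csf1r* (0.07) did not pass it. The others that were higher were *Itgad* (1.80, a DEG), *Cd5l* (0.90), *Mertk* (0.71), *Timd4* (0.65), *Vcam1* (0.65) and *Fcgr1* (0.38), and those that were lower were *Marco* (-1.35, a DEG) and *Mrc1* (-0.33). Neutrophil markers summed to 2790 to 3852 CPM and 5223 to 5481 CPM, endothelial markers to 199 to 250 CPM and 650 to 712 CPM, and B and plasma cell markers to 1848 to 2253 CPM and 523 to 583 CPM in the TranspCtrl and TranspExer samples, respectively. By adjusted p 6 of 10 neutrophil markers were higher and 0 lower, 8 of 8 endothelial markers were higher, and 7 of 8 B and plasma cell markers were lower and 0 higher. Within the neutrophil list the primary granule genes *Mpo* (log2 fold change 2.47), *Elane* (2.16) and *Prtn3* (1.79) were DEGs, while *S100a8* (-0.17), *S100a9* (-0.07), *Camp* (0.31) and *Retnlg* (0.07) did not pass the adjusted p. Markers of erythroid cells, the main users of transferrin iron for heme, were close to 0. Their sum was 2.29 to 2.84 CPM in the TranspCtrl and 4.57 to 5.49 CPM in the TranspExer samples, and only *Epor*, the erythropoietin receptor, was tested (log2 fold change 1.34, edgeR adjusted p = 0.00492). Without *Epor* the other 10 summed to 0.586 to 1.13 CPM and to 0.732 to 1.16 CPM, and the groups overlapped. *Ermap*, a red cell membrane protein, reached at most 0.667 CPM and *Hba-a2*, an alpha globin, at most 0.497 CPM.

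When the samples were scaled to the summed counts of the 18 macrophage markers in place of TMM, a setting chosen after the data were seen, the median of all tested genes moved to -0.21. *Slc40a1* then had a log2 fold change of 1.35 (edgeR adjusted p = 9.21e-05) and was the only DEG of the 10 genes, against 2.26% of all tested genes that were upregulated DEGs in that setting. *Tfrc* (0.97), *Fth1* (0.89), *Spic* (0.79), *Slc11a1* (0.73) and *Hmox1* (0.35) were still higher by adjusted p, as were 5.8% of all tested genes. *Ftl1* (0.29), *Slc48a1* (0.25), *Trf* (0.07) and *Blvrb* (-0.022) did not pass it. The part of the other cell types in these values was not tested.

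**Figure D5:**
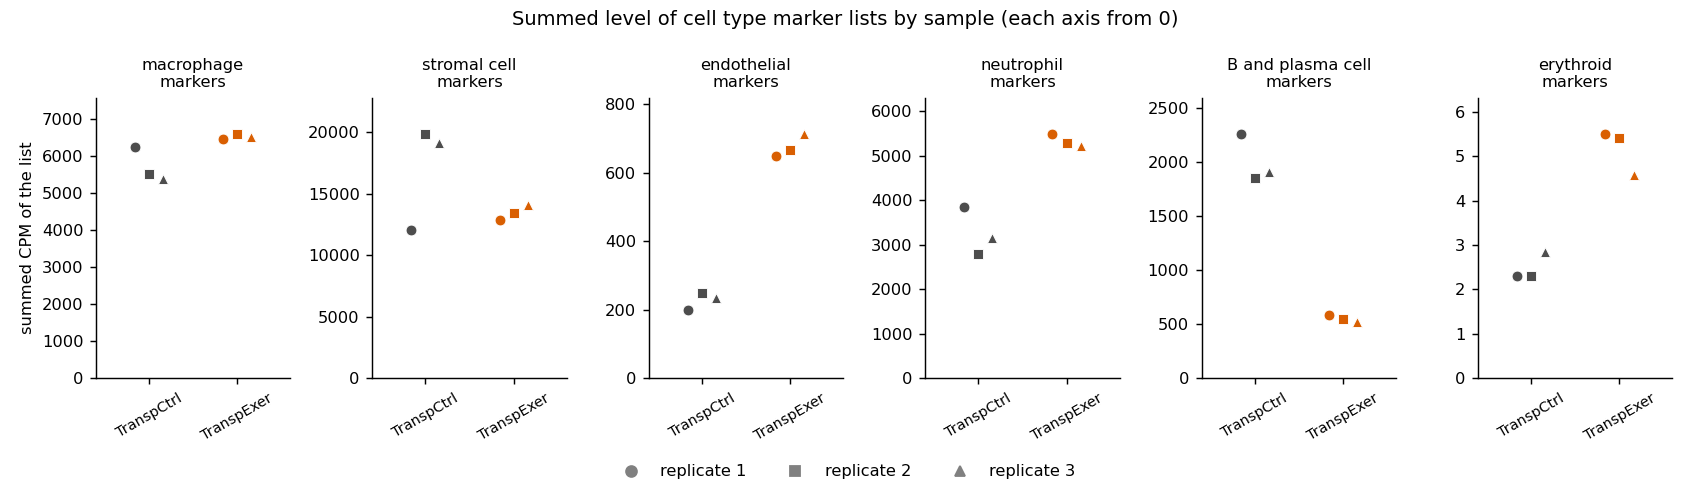
Summed CPM of 6 marker lists (y axes, each from 0) in each TranspCtrl and TranspExer sample (x axis), where symbols mark the replicates. Endothelial and neutrophil sums are higher in every TranspExer sample, as is the erythroid sum with *Epor* but not without it. The macrophage sum is also higher in each, but would overlap without *Axl* or without *Cd68*. B and plasma cell sums are lower, and the stromal sum, of which *Col1a1* and *Col1a2* make up at least 80.3%, is lowest in TranspCtrl replicate 1 at 12071 CPM.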

How the data were processed

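BM MSCs of 3 TranspCtrl and 3 TranspExer samples were grouped by the sample labels. The authors deposited estimated counts per gene from their RNA-Seq reads, not normalized, of which 10.1% to 12.2% per sample were not whole numbers. The submitters' processing notes name mm10. The aligner and the counting tool are not given in the sources used here, and the library kit is named differently in the labels (stranded) and in the methods. Coordinates and transcripts came from GENCODE M21 (GRCm38), which held 52073 of the 56980 gene identifiers.

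Counts were rounded and tested with edgeR 4.0.16 in R 4.3.3 (filterByExpr, TMM, quasi-likelihood test with group as the only term, Benjamini-Hochberg adjustment over 15190 genes), after the steps were tested on simulated data. Each SE is the log2 fold change over the square root of F. Floors of 3 counts (at most 0.174 CPM) cover counting error only. Ratios within a sample used an offset of 0.5 and an exact two-sided permutation test. Python 3.11.15 was used for the motif search and the plots.

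The genes named are the 10 members, the DEGs of each wider iron and heme list or otherwise its 2 genes with the smallest adjusted p, the 3 nearest profiles of each DEG among the members, and the 3 macrophage and 3 erythroid markers with the highest mean CPM. Not every DEG of the marker lists is named. *Hamp*, *Ftmt*, *Pcbp1*, *Pcbp2*, *Ftl1-ps1*, the other markers and overlapping genes were named after their values were seen. The members and lists were chosen with earlier results of these data known.

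The alternatives were DESeq2 1.42.0, other scaling factors, no count filter or at least 10 counts in every sample, a block for the replicate number, each sample left out, immunoglobulin genes left out, pseudogene counts added, the fold change of 2 tested within the model and, added after the data were seen, scaling to macrophage markers. Deviations of samples with the same number correlated at 0.02, -0.01 and 0.04, so the numbers were not taken as pairs.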

Additional observations from a re-analysis of the deposited data

How the results depend on the processing

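*Slc40a1* kept its direction and its call under all 17 alternatives. Testing the fold change of 2 within the model left 138 upregulated and 274 downregulated DEGs of all genes in place of 531 and 802, 1 of the 10 genes (*Slc40a1*) and 1 gene of the wider lists (*Tfr2*). Scaling to the macrophage markers gave 344 upregulated and 1175 downregulated DEGs and 1 of the 10 genes, moved the median of all genes to -0.21 and turned *Blvrb* to -0.022. Library size alone gave 445 upregulated and 941 downregulated DEGs and moved the median of all genes to -0.10. Leaving out 1 sample gave 443 to 579 upregulated and 671 to 852 downregulated DEGs, 3 to 4 DEGs and 8 to 10 genes past the adjusted p among the 10, and 2 to 3 DEGs in the wider lists. The difference in the *Tfrc* to *Fth1* log2 ratio ranged from -0.10 to 0.21 when 1 sample was left out and was -0.10 without TranspCtrl replicate 2 or 3 and -0.032 without TranspExer replicate 2. That of *Ftl1* to *Fth1* ranged from -0.89 to -0.34. With the replicate block 519 genes were up and 767 down, 3 of the 10 genes were DEGs, 8 were past the adjusted p, as *Trf* lost its call, and the block changed no other call of the 10. DESeq2 gave 3 DEGs among the 10 genes and 9 past its adjusted p. *Trf* lost its call under upper-quartile factors (adjusted p = 0.0779), library size alone (0.0889) and no filter (0.0709). With 3 samples a group the ratios cannot pass an exact test. *Spic* rested on the fewest counts of the 10 genes, 177 to 425 a sample.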

Other observations

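*Pcbp1* and *Pcbp2*, which encode chaperones that deliver iron to ferritin, showed the same low level in TranspCtrl replicate 1 as *Fth1*. *Pcbp1* measured 172, 277 and 280 CPM in the TranspCtrl samples and 392, 376 and 371 CPM in the TranspExer samples, a log2 fold change of 0.65 (SE 0.17, edgeR adjusted p = 0.0254). *Pcbp2* measured 280, 572 and 567 CPM in the TranspCtrl samples and 832, 754 and 786 CPM in the TranspExer samples, a log2 fold change of 0.74 (SE 0.24, edgeR adjusted p = 0.0494). Both lost the call when any 1 TranspExer sample was left out, with edgeR adjusted p of 0.0752 to 0.0815 for *Pcbp1* and 0.107 to 0.133 for *Pcbp2*, when scaled to macrophage markers (0.161 and 0.188) and when a fold change of 2 was tested within the model. *Pcbp2* also lost it with DESeq2 size factors in edgeR (0.0507), upper-quartile factors (0.0512), library size alone (0.0508), at least 10 counts in every sample (0.0511) and without TranspCtrl replicate 3 (0.0503). For both genes the groups did not overlap, and TranspCtrl replicate 1 was the lowest of the 6 samples.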
